A study of Homo sapiens with 6 samples.

Results

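The HOX genes of the 4 human clusters were followed in a prostate cancer cell line and in a taxane-resistant subclone derived from it. Members were all protein-coding genes of the deposited count table with a symbol of HOXA, HOXB, HOXC or HOXD followed by a number, with 1 HOXB gene left out by the rule, which gave 38 of 58735 genes. They comprised 11 HOXA genes (GRCh38, chr7:27092993-27200106), 9 HOXB genes (chr17:48528526-48633572), 9 HOXC genes (chr12:53938765-54056030) and 9 HOXD genes (chr2:176092891-176190907). The members of each cluster spanned 98.0 to 117.3 kb, and the HOXB span does not take in the gene left out. Total RNA was sequenced from the castration resistant prostate cancer (CRPC) line C4-2B and from RC4-2B, its cabazitaxel (CBZ)-resistant subclone, with 3 libraries labelled as biological replicates of each. RC4-2B came from cycles of 72 h of CBZ, a taxane that stabilises microtubules, each followed by recovery, with the concentration raised from 0.1 nM to 20 nM over 4 months. RC4-2B is 1 subclone, so its derivation and its resistance cannot be told apart. No engineered change is named for either line. Both were grown in RPMI-1640, with 10% FBS by the labels, and the methods also name charcoal-stripped serum. No drug is named for the culture before harvest.

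HOX genes encode homeodomain transcription factors that give cells their position along the body axis. Within a cluster the genes lie in the order in which they act, from the low-numbered genes of the head and neck to the high-numbered genes of the trunk, limbs and genital tract, and genes of the same number in different clusters are paralogs with similar homeodomains. HOX proteins bind DNA together with the TALE homeodomain cofactors PBX and MEIS, Polycomb and Trithorax group proteins keep the clusters silent or active, and retinoic acid induces the low-numbered genes in the embryo. The prostate arises from the urogenital sinus, where high-numbered HOXA and HOXD genes are active.

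The comparison rests on 15707134 to 18052517 counts per library, so that 3 counts, taken as the floor, correspond to 0.170 to 0.188 CPM (counts scaled to library size by TMM), a floor that covers counting error only. All 8 luminal prostate markers exceeded 3 counts, with summed levels of 3190 to 3330 CPM in C4-2B and 2980 to 3550 CPM in RC4-2B. One of them, TMPRSS2, an androgen-regulated protease gene, was called lower in RC4-2B (log2 fold change -1.08, standard error 0.16, adjusted p = 0.019 by edgeR). The defining basal markers KRT5 and TP63 did not exceed 3 counts, KRT14 had 4, 8 and 17 counts in C4-2B against 8, 5 and 6 in RC4-2B, and the basal list summed to 0.239 to 0.968 and 0.285 to 0.5 CPM. The leukocyte markers PTPRC and CD3E did not exceed 3 counts, CD68 reached 5, and the leukocyte list summed to 0.0597 to 0.396 and 0 to 0.176 CPM. Of the 5 fibroblast markers, COL1A2, DCN and LUM were at or under 3 counts, whereas the list summed to 24.1 to 27.3 CPM in C4-2B and 24.8 to 39.9 CPM in RC4-2B, and the endothelial list, with PECAM1 and CDH5 at or under 3 counts, summed to 7.47 to 8.14 and 3.64 to 5.07 CPM. The neuroendocrine list, with INSM1 at or under 3 counts, did not exceed 2.77 CPM. The part of these markers in the results was not tested. RC4-2B replicate 2 stood apart: across 6413 well-expressed genes the SD of its log2 difference from replicate 1 was 0.568, against 0.197 between replicates 1 and 3, and the difference between replicates 1 and 2 followed transcript GC content (Spearman correlation 0.765 across genes, which are not independent replicates).

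The upstream sequences of 2 members are shown because they set a HOXD gene with RNA beside one without: HOXD13, the one HOXD gene with enough counts to be tested, and HOXD11, a gene of the same cluster without a single count. Each is the 250 bases before the gene's RefSeq start on the plus strand, 5′ to 3′, with every CpG in capitals. The windows of HOXD13 (chr2:176092471-176092720) and HOXD11 (chr2:176107030-176107279) are RefSeq entries on GRCh38.p14, and neither overlapped an exon of GENCODE release 44. The HOXD11 window is upstream of the RefSeq start alone: it lies within the longer HOXD11 span of the count table (chr2:176104216-176109754).
HOXD13: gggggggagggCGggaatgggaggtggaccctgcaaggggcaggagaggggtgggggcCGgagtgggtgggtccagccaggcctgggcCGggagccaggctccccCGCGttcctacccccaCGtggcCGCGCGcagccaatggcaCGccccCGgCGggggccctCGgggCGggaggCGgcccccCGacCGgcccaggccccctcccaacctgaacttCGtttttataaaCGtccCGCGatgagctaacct
HOXD11: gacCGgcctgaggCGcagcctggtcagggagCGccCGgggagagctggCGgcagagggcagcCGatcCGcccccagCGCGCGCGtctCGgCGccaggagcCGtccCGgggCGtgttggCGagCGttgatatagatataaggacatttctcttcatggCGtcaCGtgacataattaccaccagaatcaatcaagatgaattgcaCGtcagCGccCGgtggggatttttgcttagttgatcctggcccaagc
HOXD13 held 21 CpG and HOXD11 held 23, against a median of 11 over the 34943 RefSeq windows of the same length. Short motifs were searched on both strands. The TATA box letters TATAAA, held by 10.8% of all windows, matched the HOXD13 window on each strand, at overlapping bases, and did not match HOXD11. The CCAAT box, held by 32.0%, matched HOXD13 at 1 place, at bases shared with no other match, and did not match HOXD11. Of the 13 windows of members free of exons, 10 held this box. Among them were those of HOXD3, HOXD4 and HOXD10, which had no count, so the box did not separate HOXD genes with and without RNA. The core of the site bound by PBX-HOX dimers, TGATNNAT, held by 6.49%, matched HOXD11 at 1 place and did not match HOXD13. Of the 13 windows of members free of exons, 2 held this core, those of HOXD11 and HOXB1. A RefSeq window was given for 20 of the 38 members.

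Among the 38 members, the RNA of the C4-2B libraries came mainly from the HOXC cluster and from a minority of HOXA and HOXB genes. The same held in RC4-2B. All sums and shares cover these members alone, without the HOXB gene left out by the rule. In C4-2B the 9 HOXC genes summed to 81.9 CPM ± 3.59 (SD, n = 3), which was 61.2% of the HOX total of 134 CPM ± 4.63. The HOXA genes made up 23.4%, the HOXB genes 12.8% and the HOXD genes 2.55%. In RC4-2B the HOX total was 113 CPM ± 9.36 (n = 3), of which HOXC held 61.4%, HOXA 24.2%, HOXB 12.2% and HOXD 2.14%. The HOX total was 137, 129 and 137 CPM in C4-2B replicates 1 to 3 and 122, 103 and 114 CPM in RC4-2B replicates 1 to 3, so that the groups did not overlap and the lowest value was that of RC4-2B replicate 2. The HOXC sum was 86.0, 79.8 and 79.9 CPM in C4-2B against 76.3, 58.9 and 73.1 CPM in RC4-2B, again without overlap, and the HOXA sums of the lines did overlap. No test was run on these sums. In bulk RNA, fewer cells with a transcript and less of it per cell cannot be told apart.

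Between genes, levels were compared per length, as FPKM. HOXC12 (mean of all 6 libraries 6.94 FPKM) and HOXC6 (6.60 FPKM), a gene whose transcript is raised in many prostate cancers, were the most abundant members, above 72.8% and 72.0% of all protein-coding genes of the table. They were followed by HOXA10 (4.51), a gene of the uterus and male genital ducts, HOXC13 (4.19), which acts in hair and nail, HOXC9 (3.17), HOXB9 (2.55), HOXB7 (2.43), HOXA5 (2.01), a lung patterning gene, HOXC8 (1.44) and HOXD13 (1.09), all in FPKM. The remaining members lay under 1 FPKM. Among the 17 members with a mean of at least 1 CPM, 13 of the 16 pairs of neighbours in this order overlapped in their per-library FPKM in at least 1 line. HOXC6 lay above HOXA10, and HOXC13 above HOXC9, in all libraries of both lines. HOXC4 and HOXA6, 11th and 12th in the order with nearly equal means, were in opposite order in the lines: HOXC4 was 1.15 to 1.41 FPKM in C4-2B against 0.748 to 0.999 for HOXA6, and 0.352 to 0.554 FPKM in RC4-2B against 0.579 to 1.22.

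**Figure D1:**
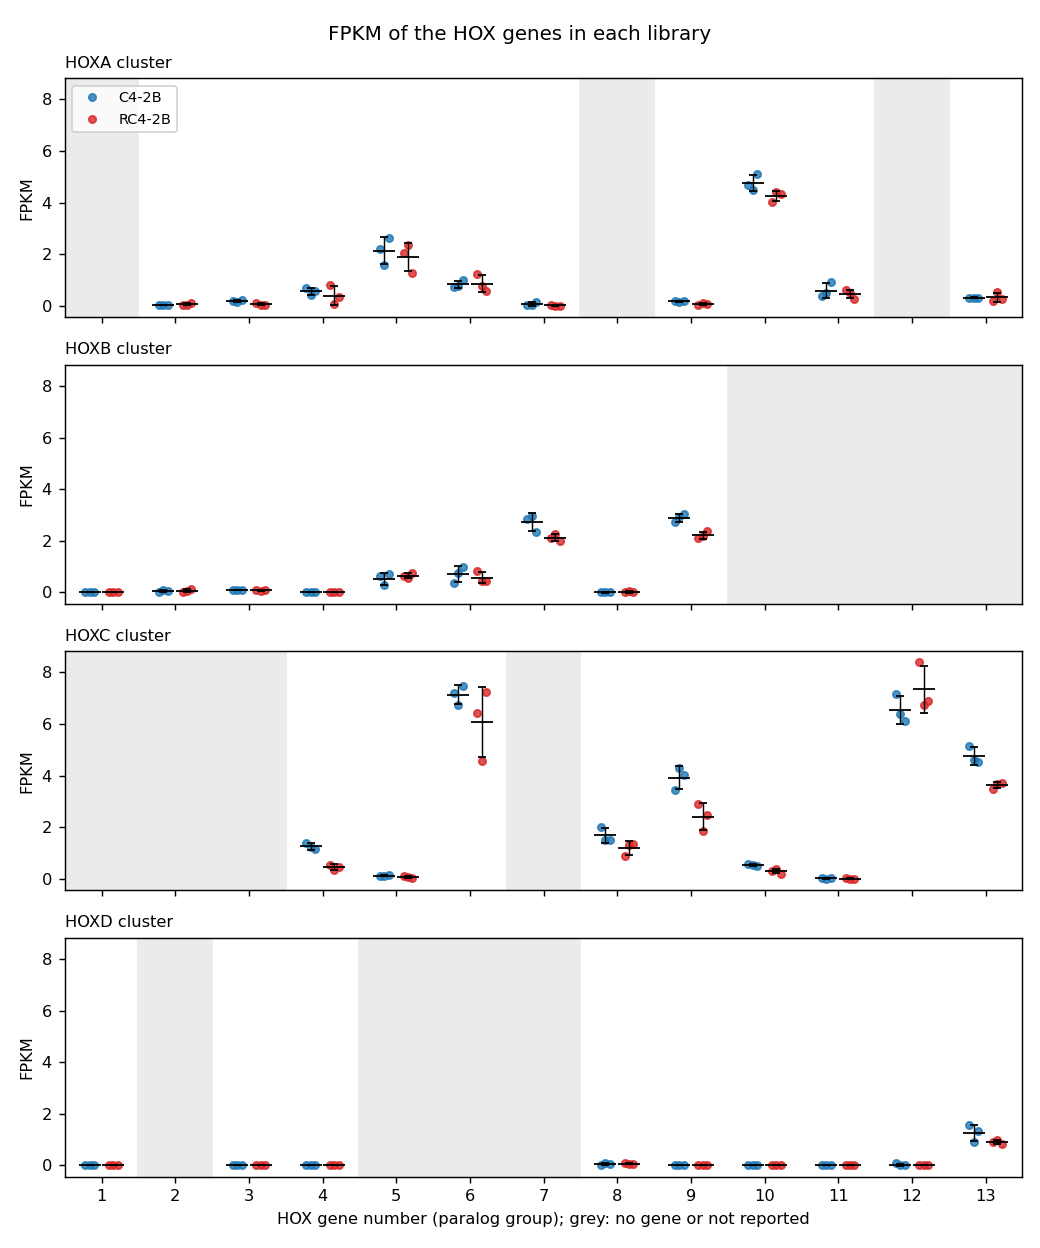
Level of the HOX genes in FPKM (y axis, linear) by gene number (x axis) in the 4 clusters. Points are the 3 libraries of C4-2B (blue) and of RC4-2B (red), and black bars give mean and SD. HOXC12 and HOXC6 reach 8.39 and 7.46 FPKM, HOXC4 separates the lines, and the HOXD cluster is close to 0 apart from HOXD13.

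Of the 38 members, 20 had enough counts for the test (7 HOXA, 5 HOXB, 7 HOXC and 1 HOXD) and 18 did not. No count at all was found in any library for HOXB1, HOXB4, HOXD3, HOXD4, HOXD9, HOXD10 and HOXD11, which limits each to under 0.188 CPM per library for reads as counted. Some of them share exonic bases with another HOX gene, such as HOXD10 and HOXD11, and how reads on such bases were counted is not given in the sources used here. HOXD1, HOXB8, HOXD12 and HOXC11 had at most 1 to 3 counts. HOXB2, HOXC5 and HOXD8 reached 5 counts, HOXA2 6, HOXA7 8 and HOXA9 11. HOXD13 was the one HOXD gene above 5 counts, HOXC11 with at most 3 counts lay between HOXC12 and HOXC10, and HOXB8 with at most 2 counts lay between HOXB9 and HOXB7. HOXA9 had 10, 9 and 11 counts in C4-2B against 2, 6 and 4 in RC4-2B, too few for the test at its filter.

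The lines were compared over 15054 genes by the quasi-likelihood test of edgeR, with Benjamini-Hochberg adjustment over all of them. At an adjusted threshold of 0.05, HOXC4 was the 1 HOX gene that passed, and it fell. None of the 20 was called higher. Over all genes tested, 1.98% were called in either direction, 1.08% higher and 0.903% lower, and 2.54% were called among genes within the level range of the tested HOX genes. At an unadjusted p under 0.05, 6 members were lower and 0 higher, against 9.42% lower and 21.4% in either direction of all genes. DESeq2 also called HOXC4 lower and no other member, with 5.93% of its 15221 genes called. The GC-corrected fit called 7.62% of genes and the fit without RC4-2B replicate 2 called 12.5%, and HOXC4 was the 1 member called in each. By direction, 16 of 20 log2 fold changes were below 0, against 49.3% of all genes. The 3 RC4-2B libraries all lay below the 3 C4-2B libraries for 9 members, against 17.1% of all genes, and above them for 0, with 34.1% of all genes apart in either direction. The median log2 fold change of the 20 members was -0.39, against 0.0063 over all genes, and was -0.39 without RC4-2B replicate 2 and -0.27 after a correction for transcript GC content.

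**Figure D2:**
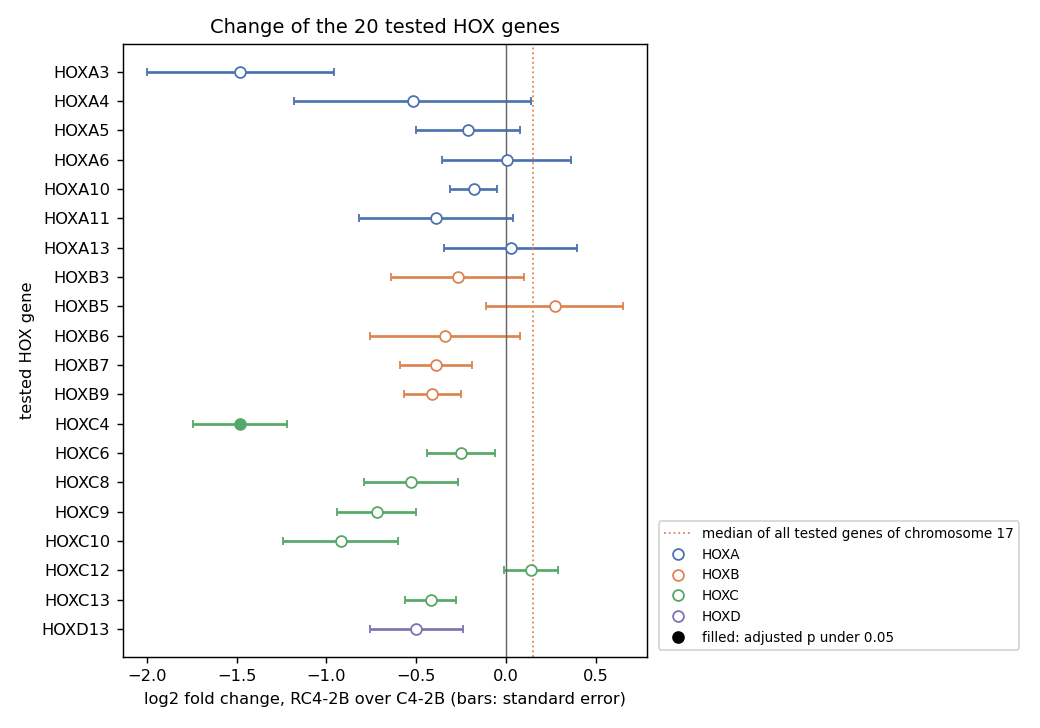
Log2 fold change of RC4-2B over C4-2B (x axis) for the 20 tested HOX genes (y axis, ordered by cluster and number), with standard errors of edgeR's fit as bars. HOXC4 at -1.48 is the one filled point (adjusted p under 0.05), 16 of the 20 points lie below 0, and the dotted line marks the median of all tested genes of chromosome 17, 0.15.

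HOXC4 (ENSG00000198353, chr12:54016931-54056030, plus strand), a low-numbered member at the 3′ end of its cluster, had 72, 66 and 61 counts in C4-2B replicates 1 to 3 and 27, 18 and 24 counts in RC4-2B replicates 1 to 3. Every RC4-2B library was below every C4-2B library, and the lowest was replicate 2. On the CPM scale HOXC4 was 3.84 ± 0.42 in the C4-2B libraries and 1.37 ± 0.333 in those of RC4-2B (SD, n = 3 each), 2.79-fold lower in the fit (log2 fold change -1.48, standard error 0.26, adjusted p = 0.0297 by edgeR's quasi-likelihood test). An exact permutation test of its CPM, two-sided, gave p = 0.1, the smallest that 3 against 3 libraries allow. Without RC4-2B replicate 2 the log2 fold change was -1.31 (edgeR adjusted p = 0.00575), and with the GC correction it was -1.50 (edgeR adjusted p = 0.00746). The call was lost when any C4-2B library or RC4-2B replicate 3 was left out (edgeR adjusted p of 0.106 to 0.186, log2 fold change -1.39 to -1.55). It was also lost by limma on FPKM values (adjusted p of 0.0692 to 0.145) and by edgeR with the replicate number as a block, in each case with the direction kept.

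**Figure D3:**
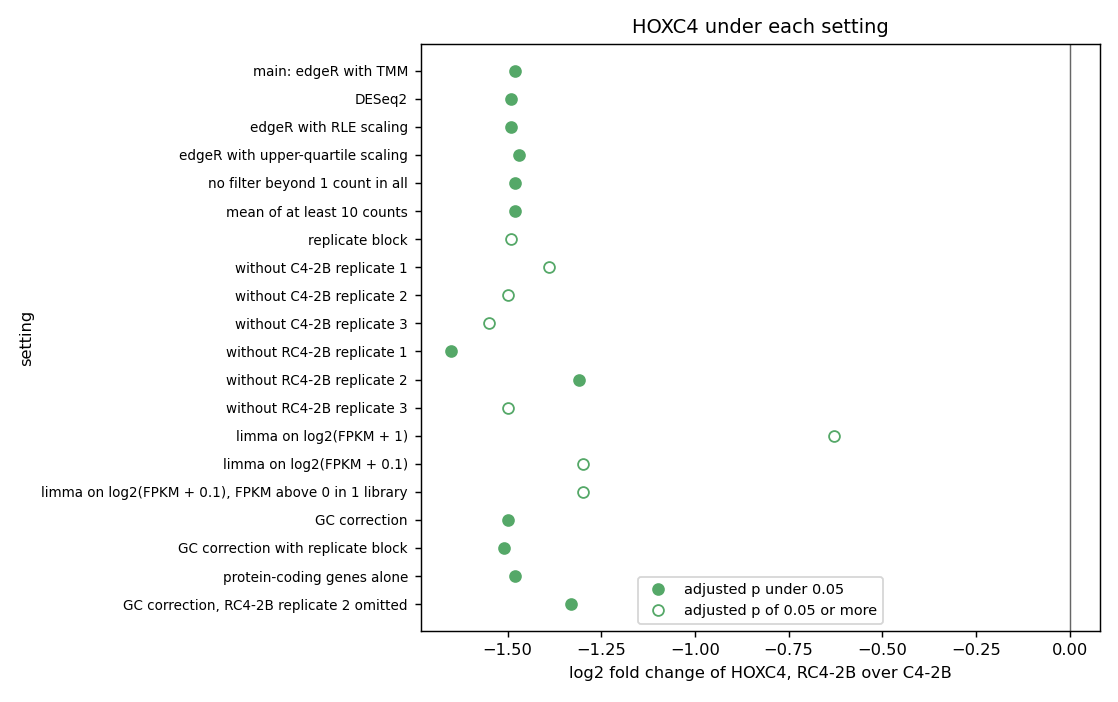
Log2 fold change of HOXC4, RC4-2B over C4-2B (x axis), under each setting (y axis), with filled points where the adjusted p was under 0.05. All values lie below 0, between -1.65 and -0.63, and the value nearest 0 is limma on log2(FPKM + 1), a scale that understates changes of genes with low FPKM.

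The HOXC4 locus carries 3 annotated transcripts in GENCODE release 44, starting at 54016931 (HOXC4-201), 54037854 (HOXC4-203) and 54053835 (HOXC4-202) of chromosome 12. In all, 484 of the 2767 exonic bases of HOXC4 are also exonic in HOXC6. How reads on these bases were counted is likewise not given. HOXC6, which shares those bases, had 477, 472 and 514 counts in C4-2B against 406, 303 and 483 in RC4-2B. Its groups overlapped, replicate 2 being the lowest RC4-2B library (log2 fold change -0.25, standard error 0.19, adjusted p = 0.428 by edgeR), and without that library the log2 fold change was -0.066 (adjusted p = 0.741 by edgeR). HOXC5, which lies inside the HOXC4 span, had 4, 4 and 5 counts in C4-2B against 4, 2 and 1 in RC4-2B.

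Along the rest of the HOXC cluster, HOXC8, HOXC9, HOXC10 and HOXC13 also had log2 fold changes below 0, and HOXC12 was the exception. For HOXC8, HOXC9, HOXC10 and HOXC13 all RC4-2B libraries lay below all C4-2B libraries, as for 17.1% of all genes tested. The 7 tested HOXC genes had a median log2 fold change of -0.53, against 0.012 over all tested genes of chromosome 12. HOXC9, a trunk gene, had 108, 143 and 132 counts in C4-2B against 87, 59 and 78 in RC4-2B (log2 fold change -0.72, standard error 0.22, adjusted p = 0.132 by edgeR). HOXC10, a gene of the lumbar region and hindlimb, had 26, 25 and 23 counts against 13, 16 and 9 (log2 fold change -0.92, standard error 0.32, adjusted p = 0.172 by edgeR). In neither gene did the lowest C4-2B library reach down to the highest RC4-2B library.

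HOXC8, a gene of the thoracic region, had 72, 56 and 56 counts in C4-2B against 30, 47 and 48 in RC4-2B (log2 fold change -0.53, standard error 0.26, adjusted p = 0.264 by edgeR). HOXC13, at the 5′ end of the cluster, had 234, 222 and 213 counts against 151, 167 and 169 (log2 fold change -0.42, standard error 0.14, adjusted p = 0.164 by edgeR). HOXC12, the neighbour of HOXC13 and the most abundant member, had 396 to 448 counts in C4-2B and up to 500 in RC4-2B. Its groups overlapped in CPM, at 24.4 ± 2.14 and 26.9 ± 3.85 (SD, n = 3 each, log2 fold change 0.14, standard error 0.15, adjusted p = 0.568 by edgeR). The GC correction moved HOXC12 to 0.39 (edgeR adjusted p = 0.0795) and HOXC13 to -0.22 (edgeR adjusted p = 0.41). The difference between these neighbours was not tested.

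**Figure D4:**
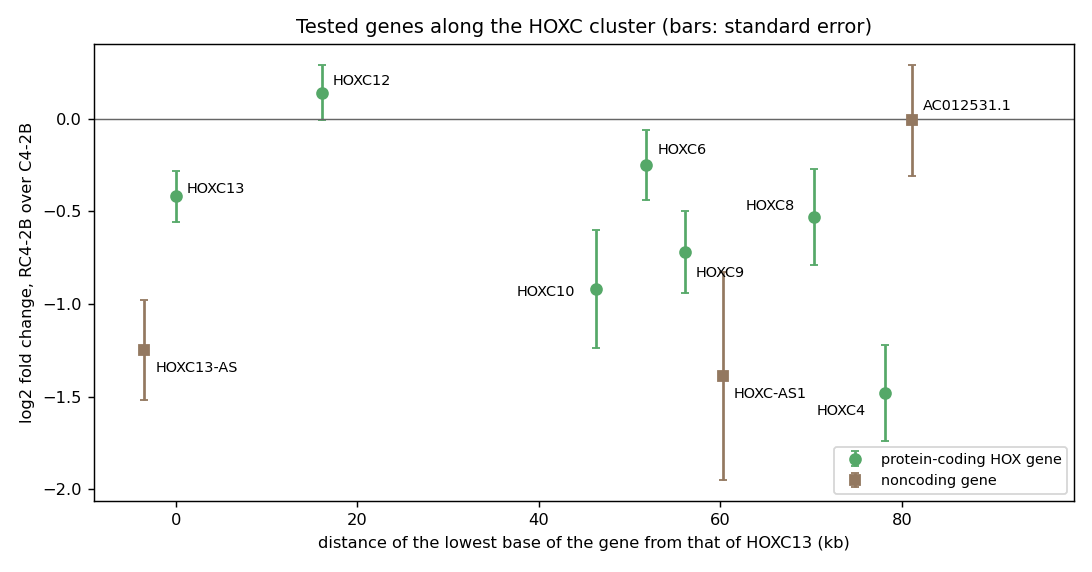
Log2 fold change, RC4-2B over C4-2B (y axis, bars are standard errors), of the tested protein-coding (circles) and noncoding (squares) genes along the HOXC cluster, by the distance of their lowest base from that of HOXC13 in kb (x axis). HOXC4 at -1.48, HOXC-AS1 at -1.39 and HOXC13-AS at -1.25 lie lowest, and HOXC12 lies above 0 at 0.14.

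In the HOXA cluster no gene passed the test. The median log2 fold change of its 7 tested genes was -0.21, against 0.042 over chromosome 7. For 2 of them, HOXA3 and HOXA10, all RC4-2B libraries lay below all C4-2B libraries, as for 17.1% of all genes tested. HOXA10 had 325, 329 and 368 counts in C4-2B against 268, 308 and 302 in RC4-2B, or 19.7 ± 1.18 and 17.4 ± 0.522 CPM (SD, n = 3 each, log2 fold change -0.18, standard error 0.13, adjusted p = 0.414 by edgeR). HOXA3, a gene of the thymus and parathyroid, had 14, 12 and 18 counts against 9, 3 and 3, the same log2 fold change as HOXC4, -1.48, at a standard error of 0.52 (adjusted p = 0.168 by edgeR). The groups of HOXA3 were apart, yet its RC4-2B counts were at the floor in replicates 2 and 3. Without RC4-2B replicate 1, its highest RC4-2B library, the log2 fold change was -2.24 (adjusted p = 0.0612 by edgeR), and with limma on log2(FPKM + 0.1) without a filter it was -0.78.

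The other HOXA genes overlapped between the lines. HOXA5 had 71, 53 and 87 counts in C4-2B against 62, 75 and 41 in RC4-2B (log2 fold change -0.21, standard error 0.29). HOXA11, a gene of the forearm and uterus, had 16, 23 and 41 against 25, 22 and 12 (-0.39, standard error 0.43). HOXA6 had 18, 20 and 25 against 28, 19 and 14 (0.0037, standard error 0.36). HOXA13, which acts with HOXD13 in digits and the genital tubercle, had 31, 32 and 30 against 17, 50 and 26, with replicate 2 the highest of all libraries. Its log2 fold change was 0.026 (standard error 0.37) and was -0.46 without that replicate, and -0.12 with the GC correction. HOXA4 had 23, 15 and 19 counts against 25, 2 and 11, with replicate 2 the lowest (-0.52, standard error 0.66). Its log2 fold change was -0.0026 without that library and -1.52 without RC4-2B replicate 1, its highest RC4-2B library (adjusted p = 0.998 and 0.152 by edgeR). The adjusted p of these 5 genes by edgeR ranged up to 0.996 for HOXA6 and was lowest for HOXA11, at 0.594.

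In the HOXB cluster no gene passed the test either. For HOXB9 and HOXB7 all RC4-2B libraries lay below all C4-2B libraries, as for 17.1% of all genes tested. The median log2 fold change of the 5 tested genes was -0.34. All tested genes of chromosome 17 had a median of 0.15 (0.23 with the GC correction), in the opposite direction. HOXB9, a gene of the thoracic skeleton and mammary gland, had 131, 150 and 152 counts in C4-2B against 97, 105 and 115 in RC4-2B, or 8.32 ± 0.444 and 6.27 ± 0.423 CPM (SD, n = 3 each, log2 fold change -0.41, standard error 0.16, adjusted p = 0.201 by edgeR). HOXB7 had 82, 90 and 70 counts against 58, 65 and 57 (log2 fold change -0.39, standard error 0.20, adjusted p = 0.283 by edgeR). The RC4-2B libraries were below the C4-2B libraries for both genes, by less than the test required over all genes.

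HOXB6 had 18, 39 and 50 counts in C4-2B against 38, 21 and 22 in RC4-2B, with overlap (log2 fold change -0.34, standard error 0.42), and 433 of its exonic bases are shared with HOXB3. HOXB5, a gene of the enteric nervous system, had 24, 11 and 28 counts against 23, 22 and 29 (0.27, standard error 0.38), and without C4-2B replicate 2, its lowest library, the value was -0.049. HOXB3, a hindbrain gene, had 8 to 16 counts in all libraries (-0.27, standard error 0.37), and without RC4-2B replicate 2, its lowest library, the value was -0.078. The adjusted p by edgeR of these 3 genes was 0.634 to 0.683. Leaving out RC4-2B replicate 2 moved the HOXB median to -0.17.

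HOXD13, the most posterior HOXD gene, was the one gene of its cluster with RNA that could be tested. It had 65, 41 and 58 counts in C4-2B against 37, 41 and 35 in RC4-2B, or 3.17 ± 0.787 and 2.24 ± 0.156 CPM (SD, n = 3 each). The groups overlapped at C4-2B replicate 2 (log2 fold change -0.50, standard error 0.26, adjusted p = 0.288 by edgeR). The median over chromosome 2 was 0.089. The windows of HOXD13 and of the HOXD11 gene without counts, printed above, both had more CpG than the median window.

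The spans of the members also hold 49 genes that are not protein-coding, among them antisense RNAs. Of these, 8 could be tested and none passed, and 30 had no count in any library. At an unadjusted p under 0.05, 2 were lower, against 9.42% of all genes. DESeq2 called 1, HOXC13-AS, with 5.93% of all its genes called. The median log2 fold change of the 8 noncoding genes was -0.24. The 3 most abundant per length lie in HOXC. HOXC13-AS, read from the opposite strand and overlapping the start of HOXC13 (chr12:53935328-53939643), had 48, 59 and 55 counts in C4-2B against 20, 29 and 17 in RC4-2B, without overlap (log2 fold change -1.25, standard error 0.27, adjusted p = 0.0571 by edgeR). The adjusted p was 0.0446 with the GC correction in edgeR and 0.0203 in DESeq2. HOXC-AS1, antisense within HOXC9, had 26, 17 and 20 counts against 14, 7 and 2, also without overlap (-1.39, standard error 0.56, adjusted p = 0.207 by edgeR). AC012531.1 had 28, 40 and 55 counts against 44, 33 and 41 (-0.0094, standard error 0.30). Whether counting used strand is not given in the sources used here, so reads of HOXC13 and HOXC13-AS where the genes overlap cannot be told apart.

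Some further noncoding genes were picked after their values were seen. AC004080.2, a lincRNA between HOXA11 and HOXA13, had 7, 3 and 5 counts in C4-2B and 0 in each RC4-2B library, at least 1.63-fold lower against a floor of 3 counts per library, and was too low for the test. Without a filter on low counts, a fit in which 4.29% of 29109 genes were called, it was called lower. HOXA-AS2, antisense in the HOXA cluster, had 0, 4 and 4 counts against 7, 7 and 6, without overlap and higher in RC4-2B, and was too low for the test. HOTAIR, the HOXC antisense RNA known for its link to Polycomb, did not exceed 2 counts.

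Protein-coding genes around the clusters gave no call. Within 0.5 Mb of the span of a cluster's members lay 44 such genes, of which 27 could be tested. None passed in edgeR or in DESeq2. At an unadjusted p under 0.05, 2 were lower and 5 higher, against 21.4% of all genes in either direction. The median log2 fold change of the 27 neighbours was 0.0056, beside -0.39 for the HOX genes. Around HOXC the median of 13 tested neighbours was -0.15, and 0.0075 without RC4-2B replicate 2. Around HOXB the median of 10 was 0.21. The 3 most abundant neighbours were HNRNPA1 (log2 fold change -0.15, standard error 0.11), which binds RNA in splicing, ATP5MC1 (-0.17, standard error 0.17), a subunit of ATP synthase, and COPZ1 (0.086, standard error 0.11), a coatomer subunit. All 3 overlapped between the lines.

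Of the 11 TALE cofactor genes, 9 could be tested and none passed in edgeR. At an unadjusted p under 0.05, 1 was lower and 2 higher, against 21.4% of all genes in either direction. DESeq2 called 2, with 5.93% of all its genes called. The median log2 fold change of the 9 TALE genes was 0.088. The most abundant were PBX2 (-0.26, standard error 0.15, adjusted p = 0.328 by edgeR), TGIF2 (-0.12, standard error 0.15) and PKNOX1 (0.18, standard error 0.15). Named after their values were seen, PBX4 and MEIS1 had groups that did not overlap, in opposite directions. PBX4 had 42, 57 and 52 counts in C4-2B against 24, 19 and 21 in RC4-2B (log2 fold change -1.19, standard error 0.26, adjusted p = 0.0611 by edgeR and 0.0303 by DESeq2). MEIS1, whose product forms complexes with PBX and HOX proteins, had 81, 104 and 95 counts against 152, 170 and 131 (log2 fold change 0.74, standard error 0.18, adjusted p = 0.0786 by edgeR and 0.0357 by DESeq2). MEIS2 had no count in any library.

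Of 38 genes of Polycomb and Trithorax complexes, chromosome architecture and CDX factors, 35 could be tested and none passed in edgeR. At an unadjusted p under 0.05, 3 were lower and 4 higher, against 21.4% of all genes in either direction. DESeq2 called 3, KMT2C, RING1 and WDR5, with 5.93% of all its genes called. The median log2 fold change was -0.00092. Among the most abundant were the cohesin subunit RAD21 (0.12, standard error 0.13) and the H3K27 demethylase KDM6A (0.28, standard error 0.11, adjusted p = 0.196 by edgeR). The smallest adjusted p was that of WDR5, a core subunit of the H3K4 methyltransferase complexes, with 2523, 2595 and 2438 counts in C4-2B against 1661, 1568 and 1857 in RC4-2B (log2 fold change -0.53, standard error 0.11, adjusted p = 0.0602 by edgeR and 0.00621 by DESeq2). Its groups did not overlap.

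Of 18 retinoic acid pathway genes, 9 could be tested and none passed in edgeR. At an unadjusted p under 0.05, 1 was lower and 1 higher, against 21.4% of all genes in either direction. DESeq2 called 1, ALDH1A1, with 5.93% of all its genes called. The median log2 fold change of the 9 pathway genes was -0.049. The receptors RXRA (-0.12, standard error 0.15), RXRB (-0.61, standard error 0.27, adjusted p = 0.239 by edgeR) and RARG (-0.25, standard error 0.18) were the most abundant. RXRB had 978, 882 and 913 counts in C4-2B against 737, 343 and 669 in RC4-2B, replicate 2 being the lowest, and without that library the log2 fold change was -0.32 (adjusted p = 0.055 by edgeR). RARB, a retinoic acid receptor gene named after its values were seen, had 84, 78 and 111 counts against 113, 163 and 147, higher without overlap (0.67, standard error 0.20, adjusted p = 0.132 by edgeR). ALDH1A1, which makes retinoic acid from retinal, had 53, 66 and 181 counts against 30, 44 and 28 (-1.51, standard error 0.46, adjusted p = 0.132 by edgeR and 0.022 by DESeq2). The groups did not overlap, and C4-2B replicate 3 was far above the other C4-2B libraries.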

How the data were processed

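Reads were mapped to GRCh38 with STAR by the authors, who deposited 1 table of read counts per gene, whole numbers without normalization, and 1 of FPKM values, which divide those counts by gene length and a library total. Which program counted reads, from which annotation, and whether it used strand, is not given in the sources used here. Samples were matched to columns by the labels. The labels name FBS as the serum, and the methods also name charcoal-stripped serum.

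The main test was edgeR 4.0.16 in R 4.3.3 on the deposited counts (TMM scaling, filterByExpr with a minimum of 10 counts, cell line as the only term, glmQLFit and glmQLFTest, 15054 genes). CPM is TMM-scaled, and a standard error is |log2 fold change| divided by the root of F. DESeq2 1.42.0, the tool named by the study for this comparison, limma 3.58.1 on log2(FPKM + 1) and log2(FPKM + 0.1), a lowess correction (span 0.2) for the GC content of the longest GENCODE 44 transcript, other scalings and filters, protein-coding genes alone, the replicate block and each library left out were alternatives. The GC correction without RC4-2B replicate 2 was added after the data were seen. On simulated counts of 14783 genes for this comparison, 95 of 100 genes changed by 2 and 62 of 96 changed by 1 on the log2 scale were called. The changed genes were drawn from genes of all levels, and no trend with GC content was simulated. These shares therefore do not give the power for the HOX genes.

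The members, lists and tests were chosen with earlier results of these data known. Members are named except where an item is not reported here. Library values are given for members past the threshold or with a mean of at least 1 CPM, and, for other lists, members past the threshold and the 3 of highest mean FPKM are named. Members outside this rule (HOXA3, HOXA4, HOXA9, HOXC5) and list genes described as such were added after their values were seen. Some genes and 1 upstream sequence covered by the rules are not reported here. Nothing in the labels says that libraries came from separate cultures beyond the word biological, so p-values measure the spread between these libraries. No 2 libraries of a line were alike within sampling noise (chi-square per gene of 5.13 to 132).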

Additional observations from a re-analysis of the deposited data

How the results depend on the processing

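HOXC4 was lower in RC4-2B in all 19 alternatives, with a log2 fold change from -1.65 to -0.63, and passed the threshold in 11 of them (adjusted p 0.00156 to 0.186). The count of HOX genes lower in RC4-2B, 1, became 0 with limma on log2(FPKM + 1), on log2(FPKM + 0.1) and on log2(FPKM + 0.1) without its filter, 0 to 1 with 1 library left out, and 0 with the replicate number as a block (HOXC4 -1.49, adjusted p = 0.0639). Whether the replicate numbers pair the libraries was not settled. Correlations of the deviations from the line's mean were 0.467, 0.269 and -0.108 for same-numbered libraries, and -0.407 to 0.292 for libraries of unlike number. The block moved the calls over all genes to 55 higher and 74 lower. No HOX gene was called higher in any alternative. Of 359 values of single HOX genes, 332 kept direction and side of the threshold, 8 lost the call, all of HOXC4, and 19 turned direction, all between -0.51 and 0.047 and not called.

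Over all genes, 162 were higher and 136 lower. These became 500 and 402 with DESeq2, 604 and 646 without a filter, 46 and 58 with limma on log2(FPKM + 1), 39 and 47 on log2(FPKM + 0.1), 13 and 33 without its filter, 657 and 490 with the GC correction, 642 and 564 with the block added, 1037 and 1013 with the GC correction and RC4-2B replicate 2 omitted, and 13 to 1000 and 31 to 925 with 1 library left out. The highest counts came without RC4-2B replicate 2.

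Turned values were HOXA4 at 0.04 (GC correction, RC4-2B replicate 2 omitted) and, with 1 library left out, HOXA5 at 0.0043 (range -0.39 to 0.0043), HOXA11 at 0.047 (-0.64 to 0.047) and HOXB5 at -0.049 (-0.049 to 0.51). HOXA6 was -0.0047 with DESeq2, -0.0066 with RLE scaling, -0.00057 without a filter, -0.031 with the block, -0.018 with limma without its filter, and from -0.34 to 0.22 with 1 library left out. HOXA13 was -0.057 with the block, -0.035 with limma without its filter, -0.12 with the GC correction, -0.18 with the block added and -0.51 with replicate 2 also omitted, and from -0.46 to 0.30 with 1 library left out.

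Lists without a call in the main test gained calls, as did the whole table. Of all genes, 1.98% were called in the main test, 5.93% with DESeq2, 4.29% without a filter and 7.62% with the GC correction. Without RC4-2B replicate 2 the share was 12.5%. With the GC correction and that library omitted, 1037 genes were called higher and 1013 lower of 15378. DESeq2 called 1 noncoding gene (HOXC13-AS), 2 TALE genes (MEIS1, PBX4), 3 regulators and 1 retinoic acid gene. Without a filter the counts were 2 (with AC004080.2), 1, 4 and 1, and 1 neighbour (TTLL6). With the GC correction they were 1, 1, 5 and 1, with the block added 4 regulators, 1 retinoic acid gene and 1 neighbour, and with RC4-2B replicate 2 omitted 1, 2, 7, 1 and 5. With 1 library left out they ranged from 0 to 1, 0 to 2, 0 to 7 and 0 to 1, with 0 to 1 neighbour. A window of 1 Mb gave 1 called neighbour, ZNF652, chosen after its value was seen. The causes were not tested. HOX counts were mostly under 100, and the part of this in the size of the standard errors was not tested.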
